A study of Mus musculus with 19 samples.

Results

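Genes whose RNA level in mouse pancreatic organoids with pancreatic intraepithelial neoplasia (PanIN) stood apart from both the normal and the tumor organoids are described here. PanIN is a microscopic precursor lesion of pancreatic ductal adenocarcinoma that grows within the ducts. A gene was taken when the mean log2(TPM + 1) of the PanIN lines lay at least 0.5 above both, or at least 0.5 below both, of the normal and tumor means. TPM is a relative transcript abundance that is corrected for transcript length and made to sum to 1 fixed total per library. Of 12500 genes tested (TPM of at least 1 in 6 or more of the 19 lines), 82 were high in PanIN lines (0.656%) and 33 were low (0.264%), 115 in all or 0.92%.

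The 19 lines are organoids, hollow epithelial spheres grown in a basement membrane gel from ductal cells of mice on a C57B6/J background. The 7 normal lines came from ducts of wild-type mice. The 6 PanIN lines came from ducts of PanIN-bearing pancreas of mice with Pdx1-Cre and 1 further Cre-activated allele. The 6 tumor lines came from adenocarcinomas of mice that carried both of these and Trp53LSL-R172H, a Cre-activated allele that encodes a mutant p53. Pdx1-Cre acts in the epithelium of the developing pancreas, and the normal lines carry no Cre. The medium was the same for all lines and held the growth factors EGF and FGF-10, the BMP antagonist noggin, R-spondin, gastrin and A83-01, which inhibits TGF-beta receptors. Of the PanIN lines 3 were female and 3 male, against 8 and 5 among the other 13 lines. Whether any of the lines came from 1 mouse or 1 litter is not stated in the labels, and a p-value here reflects no more than the variation from line to line.

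Ductal markers were present in every PanIN line: the keratin gene Krt19 ranged from 802 to 1349 TPM, Epcam from 344 to 387 TPM and the transcription factor gene Sox9 from 4.73 to 7.28 TPM. The acinar markers Ptf1a and Amy2b, the endocrine markers Ins2 and Gcg, the fibroblast markers Col3a1 and Lum, and the immune markers Cd3e and Lyz2 were listed at 0 in all 19 lines. Other genes of these lists were not at 0. The highest values in any line were 2.36 TPM for acinar Cela1, 1.71 for endocrine Nkx2-2, 21.7 for fibroblast S100a4 and 5.57 for immune Csf1r. In PanIN lines the acinar list summed to 1.79 to 3.19 TPM and the endocrine list to 1.67 to 2.13 TPM. The whole fibroblast list of 16 genes summed to 9.70 to 16.5 TPM in PanIN lines, 4.60 to 18.98 in normal lines and 4.87 to 27.4 in tumor lines, and the immune list of 15 genes in the table to 3.00 to 4.64, 5.91 to 10.2 and 2.19 to 5.87 TPM. Between 11938 and 12437 genes reached a TPM of 1 per line. In such bulk samples, fewer cells with a transcript and less of it per cell cannot be told apart.

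Among the genes high in PanIN lines, targets of the p53 tumor suppressor were the most numerous of 32 gene lists. They numbered 11 of 37 tested genes of that list, beside 0.656% of all tested genes. Of these 11, 9 were called against both normal and tumor lines (0.336% of all tested genes). Genes of drug and aldehyde metabolism followed with 5 of 27. The lists held from 0 to 46 tested genes and were chosen with earlier results of these data known, so the ranking is a description. The lists of MAP kinase output, NRF2 and glutathione, complement, and matrix and invasion held 2 high genes each, and most of the 82 high genes were in no list. Among the low genes were Lgr5 and Axin2, targets of Wnt signaling, and the ductal gene Cftr.

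**Figure D1:**
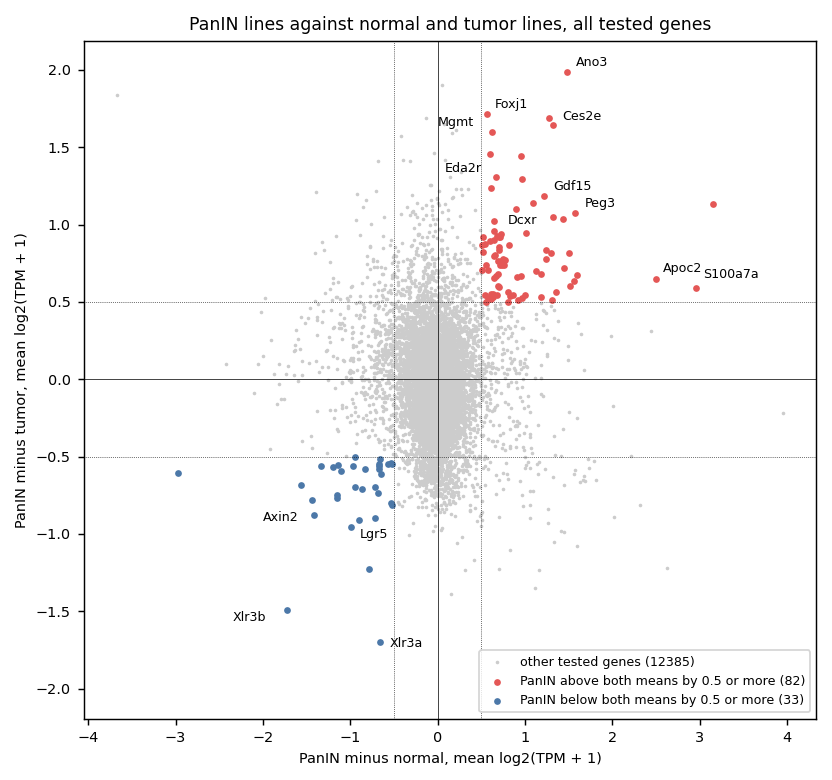
Each point is 1 of the 12500 tested genes, with the PanIN minus normal difference in mean log2(TPM + 1) on the horizontal axis and the PanIN minus tumor difference on the vertical axis. The dotted lines mark the threshold of 0.5 on each side; the 82 red points lie past it on both axes upward and the 33 blue points downward, and Ano3 is the farthest of the red points by the smaller of its differences.

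A gene was called where limma, run on all 12500 genes, gave an adjusted p below 0.05. The members were chosen by the same mean differences, so the counts of calls among them are given as a description. PanIN vs normal and PanIN vs tumor also share the PanIN lines, and a chance deviation of those lines enters both. In either direction 6.78% of all tested genes were called against normal lines, 1.6% against tumor lines, 1.36% against the pooled lines and 0.352% against both groups. Of the 82 high genes, 44 were called above normal lines (3.1% of all tested genes), 30 above tumor lines (1.21%) and 25 above both (0.336%). Against the 13 normal and tumor lines pooled, 39 of the 82 were called (0.936%). A total of 33 high genes were called against neither group. Of the 33 low genes, 10 were called below normal lines (3.68%), 2 below tumor lines (0.392%), 1 below both (0.016%) and 6 below the pooled lines (0.424%). For 14 of the high genes all 6 PanIN lines lay above all 13 others (0.184% of all tested genes), whereas no low gene had all 6 below (0.024%).

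The median difference of the 82 high genes was 0.75 over normal and 0.77 over tumor lines, against medians of -0.03 and -0.06 over all tested genes. For the 33 low genes the medians were -0.87 and -0.68. All differences refer to log2(TPM + 1), where the added 1 shrinks the change of genes near or below a TPM of 1. That concerned the low genes more, since 21 of the 33 had a mean under 5 TPM in PanIN lines, compared with 16 of the 82 high genes.

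**Figure D2:**
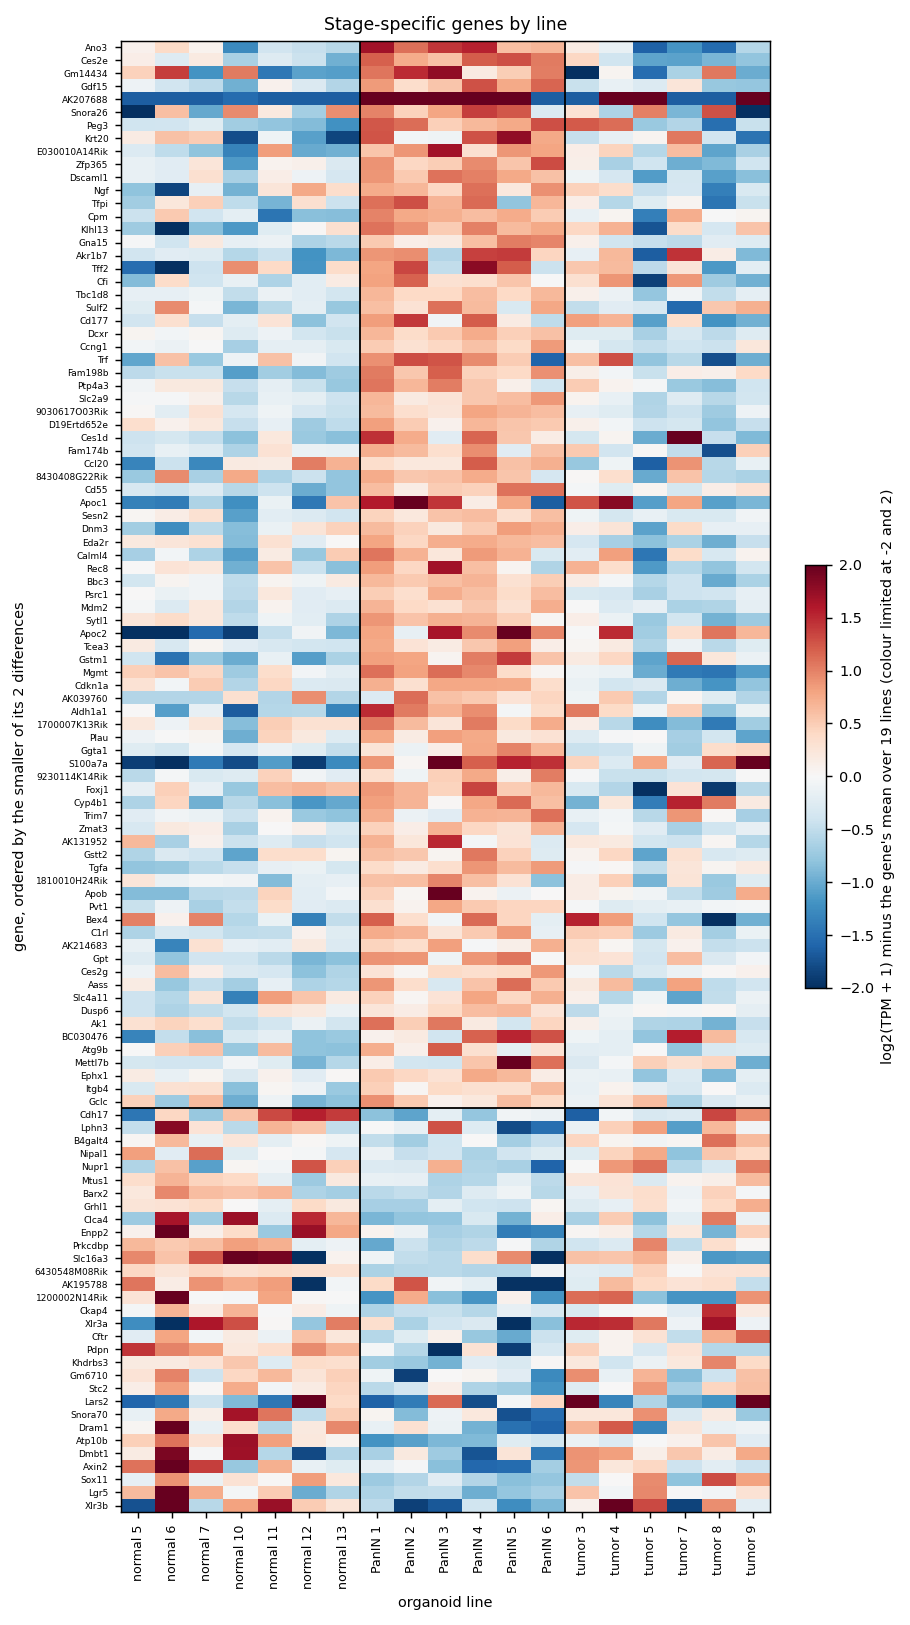
Each row is 1 of 113 of the 115 genes, each column 1 of the 19 lines, and the colour is log2(TPM + 1) minus the gene's mean over the lines, limited at -2 and 2. The PanIN columns are red across most of the 82 upper rows and blue across most of the 31 lower rows, and single normal or tumor lines share the PanIN colour in many rows.

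The high genes, averaged per line as log2(TPM + 1) minus the mean of the 19 lines, gave 0.42 (PanIN 6) to 0.78 (PanIN 1) in PanIN lines. The nearest other lines were tumor 4 at 0.09 and tumor 3 at 0.03, and the lowest was normal 10 at -0.60. For the low genes the same average ran from -0.84 (PanIN 6) to -0.35 (PanIN 3) in PanIN lines, and tumor 7 lay at -0.35 too. PanIN 6 thus had the lowest average of the PanIN lines on both sides. The choice of members fixes the order of the group averages. As a description of the chosen genes, the line with the highest value was PanIN 3 for 19 of the high genes, PanIN 1 or PanIN 5 for 16 each, PanIN 4 for 15, PanIN 6 for 10 and PanIN 2 for 6. For the low genes the line with the lowest value was most often PanIN 5, for 10 of the 33.

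The protein p53 is a transcription factor that DNA damage and other stresses stabilise. It switches on genes that stop the cell cycle, start apoptosis, repair DNA and, through the ubiquitin ligase Mdm2, lower p53 itself. In pancreatic ductal adenocarcinoma it is often mutated, and R172H is a mouse counterpart of a mutation that removes most of its DNA binding. The p53 comparison of tumor with PanIN lines is therefore also a comparison of Trp53 genotypes, whereas PanIN and normal lines both carry the unaltered gene as far as the labels say.

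Ccng1, which encodes cyclin G1, was the most abundant of the p53 targets, at 522 to 769.6 TPM (median 584) in PanIN lines, 268 to 422 (median 374) in normal lines and 305 to 494 (median 328) in tumor lines. Every PanIN line exceeded every other line, and the nearest was tumor 9 at 494 TPM. On the log2 scale Ccng1 was higher by 0.72 (SE 0.12) than in normal lines (adjusted p = 0.00121, limma) and by 0.76 (SE 0.13) than in tumor lines (adjusted p = 0.00368). The p53 antagonist gene Mdm2 ran at 92.7 to 125 TPM (median 105) in PanIN lines, 49.8 to 87.5 (median 64.1) in normal lines and 48.3 to 74.8 (median 64.2) in tumor lines. Its PanIN lines again lay above all others, with differences of 0.65 (SE 0.13, adjusted p = 0.00333, limma) and 0.80 (SE 0.13, adjusted p = 0.00352).

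Cdkn1a, the gene of the p21 protein that blocks cyclin-dependent kinases, had 64.9 to 89.3 TPM (median 86.7) in PanIN lines, 34.2 to 74.1 (median 49.5) in normal lines and 22.3 to 47.0 (median 34.7) in tumor lines. Normal 7 and normal 11 reached into the PanIN range, and no tumor line did. The difference from tumor lines was 1.24 (SE 0.19, adjusted p = 0.00289, limma), and that from normal lines, 0.61 (SE 0.19), missed the threshold (adjusted p = 0.0549). The apoptosis gene Bbc3, which encodes PUMA, stood at 8.72 to 11.6 TPM (median 10.6) in PanIN lines, 4.51 to 7.92 (median 6.47) in normal lines and 2.92 to 7.83 (median 4.61) in tumor lines. All PanIN lines lay above all others, and it was higher by 0.65 (SE 0.15) than in normal (adjusted p = 0.0151, limma) and by 0.96 (SE 0.16) than in tumor lines (adjusted p = 0.00391).

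Eda2r, a receptor of the tumor necrosis factor family, measured 53.6 to 69.9 TPM (median 64.8) in PanIN lines, 21.4 to 49.5 (median 45.8) in normal lines and 19.8 to 31.4 (median 25.1) in tumor lines. All PanIN lines lay above all others, and the tumor lines and normal 10 lay lowest. Its difference was 0.66 (SE 0.16, adjusted p = 0.014, limma) over normal and 1.31 (SE 0.16, adjusted p = 0.000526) over tumor lines. With PanIN 5 and PanIN 6 both left out, the larger of its adjusted p-values over the 2 groups was 0.066.

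Gdf15, a secreted stress-induced cytokine, had the largest smaller-side difference of the p53 targets. It stood at 32.9 to 63.7 TPM (median 45.6) in PanIN lines, 12.8 to 27.4 (median 19.6) in normal lines and 14.6 to 30.4 (median 19.8) in tumor lines, with every PanIN line above every other line. On the log2 scale it was higher by 1.22 (SE 0.19) than in normal (adjusted p = 0.000544, limma) and by 1.19 (SE 0.19) than in tumor lines (adjusted p = 0.00352). Dcxr, which encodes dicarbonyl and L-xylulose reductase, had 65 to 84.7 TPM (median 74.2) in PanIN lines, 36.4 to 52.1 (median 46.8) in normal lines and 31.5 to 42.2 (median 40.7) in tumor lines. The PanIN lines lay above all others, and the adjusted p was 0.000176 over normal and 0.000114 over tumor lines (limma).

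Psrc1, a microtubule-associated protein gene, ran at 91.5 to 120.0 TPM (median 105) in PanIN lines, 49.9 to 83.8 (median 65.9) in normal lines and 45.6 to 64.5 (median 55.8) in tumor lines, with all PanIN lines above all others. Its differences were 0.65 (SE 0.10, adjusted p = 0.00062, limma) and 0.90 (SE 0.10, adjusted p = 0.000295). Zmat3, an RNA-binding zinc finger gene, had 8.61 to 13.1 TPM (median 10.8) in PanIN lines, 4.58 to 9 (median 7.82) in normal lines and 4.61 to 7.49 (median 6.23) in tumor lines, and normal 6 and normal 7 lay just above the lowest PanIN line. It was called on both sides, at adjusted p = 0.0189 over normal and 0.0136 over tumor lines (limma).

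Sesn2, which encodes a stress-inducible sestrin that restrains mTORC1, stood at 21.5 to 28.9 TPM (median 26.6) in PanIN lines, 8.21 to 23.1 (median 15.8) in normal lines and 14.3 to 17.5 (median 15.7) in tumor lines. Normal 7 alone reached into the PanIN range. Its difference was 0.67 (SE 0.16) over each group, with adjusted p = 0.0139 for normal and 0.0469 for tumor lines (limma). The call was a narrow one, since it was lost on leaving out any 1 of normal 5, 12 or 13, PanIN 1 to 5, or tumor 5, 8 or 9, with an adjusted p of up to 0.127. Sesn2 was also the sole high member of the list of ATF4 and unfolded protein response genes. That list has 34 tested genes and median differences of 0.01 over normal and -0.37 over tumor lines. Sulf2, an extracellular heparan sulfatase gene, met the difference rule but neither test. It had 11.7 to 32.6 TPM (median 23.1) in PanIN lines, 7.34 to 29.3 (median 12.3) in normal lines and 4.32 to 24.8 (median 11.98) in tumor lines, and 7 of the 13 other lines lay above PanIN 5, the lowest PanIN line (adjusted p = 0.201 and 0.155, limma).

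**Figure D3:**
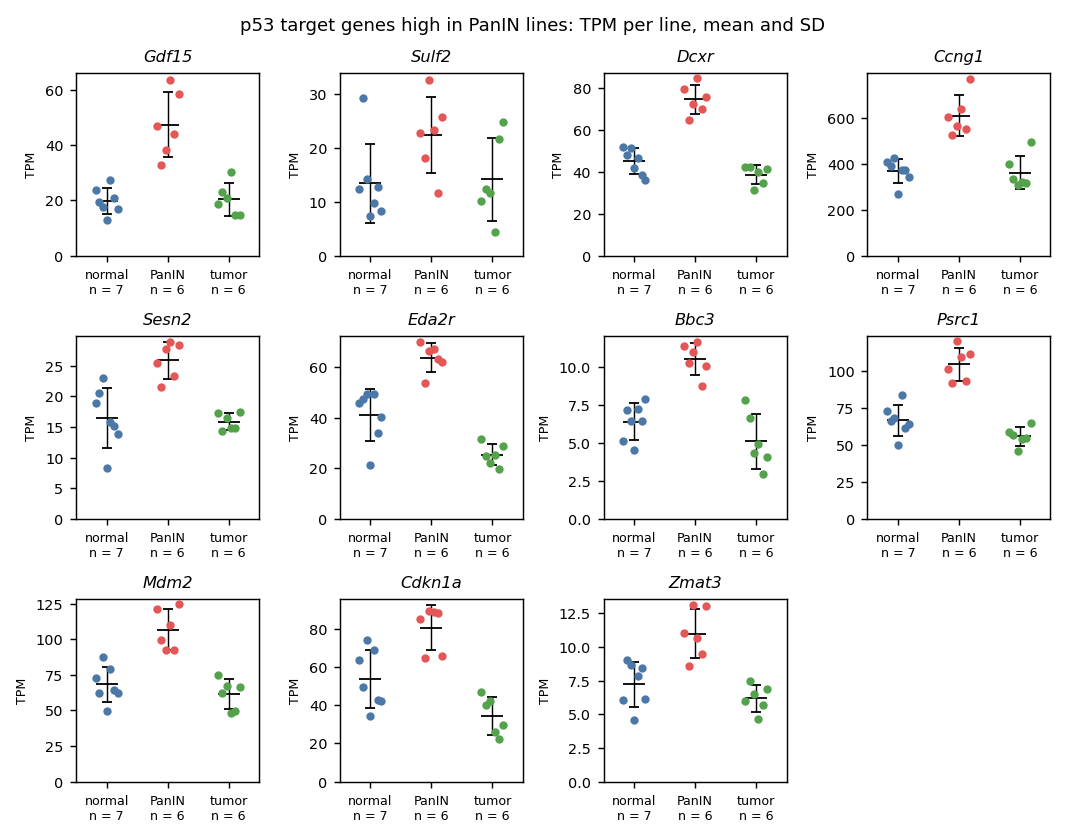
TPM of the 11 p53 target genes high in PanIN lines, 1 panel per gene, with a point per line, a bar at the group mean and whiskers of 1 SD on axes that start at 0. The PanIN points clear every other point for Gdf15, Dcxr, Ccng1, Eda2r, Bbc3, Psrc1 and Mdm2, while Sulf2 overlaps broadly.

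The p53 list as a whole has 37 tested genes. Of these, 16 were called higher in PanIN lines than in the pooled lines and 0 lower. Against normal lines 13 were called higher, against tumor lines 21, and 12 against both, again with none lower. The list's median difference was 0.37 over normal and 0.65 over tumor lines, beside -0.03 and -0.06 over all genes. Over 23 other settings the number called higher on both sides ranged from 9, with PanIN 5 and PanIN 6 left out, to 15. Those settings were other scalings and left-out lines, and the covariate, pseudocount, filter and replicate block fits were not among them. With the line number as a replicate block, 0 of all tested genes were called higher on both sides, and hence 0 of this list.

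The members Mdm2, Cdkn1a, Zmat3 and Ephx1 and the named genes that are no members, here and in the other lists, were chosen after their values were seen. Beyond the 11 members, 3 list genes were called on both sides with a difference under 0.5 on 1 of them. Bax, whose product permeabilises mitochondria in apoptosis, had 232 to 279.9 TPM (median 266) in PanIN lines, 165 to 228 (median 199.99) in normal lines and 164 to 209.7 (median 181) in tumor lines, with all PanIN lines highest. Ercc5, a nucleotide excision repair endonuclease gene, ran at 24.8 to 33.8 TPM (median 28.0) in PanIN lines, 17.1 to 23.6 (median 20.6) in normal lines and 15.3 to 19.96 (median 17.2) in tumor lines, again with all PanIN lines highest. Perp, a desmosomal p53 target, had 171 to 242 TPM (median 206) in PanIN lines, 109 to 135 (median 127) in normal lines and 128 to 180.2 (median 162) in tumor lines, and tumor 5 alone reached into the PanIN range.

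A further 8 list genes were called above tumor lines alone: Btg2, Phlda3, Polk, Ddit4l, Apaf1, Plk2, the death receptor gene Fas and Trp53inp1. Fas stood at 4.75 to 7.25 TPM (median 6.78) in PanIN lines, 5.64 to 8.2 (median 6.23) in normal lines and 1.09 to 4.06 (median 2.7) in tumor lines, so PanIN and normal lines shared a range and the tumor lines lay below it. Ei24 was called above normal lines alone, at 0.00478 (adjusted p, limma) against 0.0725 over tumor lines. Some list genes lay close together in the 3 groups: Rrm2b, a ribonucleotide reductase subunit gene, had 7.41 to 8.52 TPM (median 8.19) in PanIN lines, 7.24 to 9.77 (median 8.39) in normal lines and 7.54 to 9.02 (median 7.68) in tumor lines and differences of -0.05 and 0.03.

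Promoter sequences were looked up to see whether the letters of a p53 response element stand near the start of these genes. RefSeq promoters (build GRCm38.p6, 250 bases before to 50 bases after the start) matched 70 of the 115 genes by symbol, 53 high and 17 low. The element was searched as 2 half-sites of the p53 consensus, 10 bases each, spaced by 0 or 1 base, with the central C and G of each half-site intact and up to 2 other mismatches. The consensus reads the same on both strands. It was found in 4 of the 53 high genes (7.55%), in 0 of the 17 low genes and in 77 of the 8228 tested genes that have a promoter entry (0.936%). The matches were in Ccng1, Cdkn1a, Zfp365 and 1700007K13Rik, of which the last has 2. A match is a description of letters and not a binding site. The start is that of the RefSeq promoter entry, and starts of a gene without an entry were not searched. The stretches are shown 5′ to 3′ on the gene's strand, with the element in capitals, because they allow the reader to see how close each comes to the consensus.
Ccng1 (chr11:40755422-40755521, minus strand, element 195 to 176 bases before the start): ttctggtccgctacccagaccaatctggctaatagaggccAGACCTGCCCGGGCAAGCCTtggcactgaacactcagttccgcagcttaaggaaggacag
Cdkn1a (chr17:29090888-29090978, plus strand, element 51 to 32 bases before the start): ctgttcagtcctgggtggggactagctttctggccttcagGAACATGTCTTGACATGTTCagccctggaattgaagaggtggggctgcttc
Zfp365 (chr10:67912666-67912765, minus strand, element 63 to 44 bases before the start): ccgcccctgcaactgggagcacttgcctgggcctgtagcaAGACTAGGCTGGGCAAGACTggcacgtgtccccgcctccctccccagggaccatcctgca
1700007K13Rik (chr2:28466355-28466455, minus strand, element 91 to 71 bases before the start): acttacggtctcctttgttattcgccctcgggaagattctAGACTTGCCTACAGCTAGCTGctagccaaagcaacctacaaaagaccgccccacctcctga
1700007K13Rik (chr2:28466285-28466305, minus strand, element 19 to 39 bases after the start): AGACTTGATCTGGGCTAGTTT

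The Ccng1 and Cdkn1a elements each had 1 mismatch to the consensus and no spacer, and that of Zfp365 had 2 mismatches and no spacer. Both elements of 1700007K13Rik had a spacer of 1 base, with 2 mismatches upstream and 1 mismatch downstream of the start. The TATA box letters TATAAA, searched on both strands of the same windows, were in 12 of the 53 high genes (22.6%), in 0 of the 17 low genes and in 8.6% of all tested genes with an entry. Zfp365, a zinc finger protein gene outside the p53 list, had 11.4 to 22.0 TPM (median 14.5) in PanIN lines, 3.25 to 9.98 (median 7.44) in normal lines and 3.73 to 9.07 (median 5.50) in tumor lines. Its PanIN lines lay above all others, at 0.96 (SE 0.21, adjusted p = 0.00799, limma) over normal and 1.30 (SE 0.22, adjusted p = 0.00391) over tumor lines. With PanIN 5 and PanIN 6 left out together, the larger of these p-values was 0.0509.

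The transcript 1700007K13Rik, named because of its promoter and after its values were seen, ran at 9.72 to 17.8 TPM (median 13.7) in PanIN lines, 4.05 to 11.8 (median 9.67) in normal lines and 2.4 to 8.93 (median 4.29) in tumor lines. It was called above tumor lines (adjusted p = 0.0038, limma) and not above normal lines (adjusted p = 0.142). In the RefSeq order of protein-coding genes, 3 pairs of high genes were near neighbours among 96 members with a position. Cpm, a membrane carboxypeptidase gene also chosen after its values were seen, lies next to Mdm2, Ces2e and Ces2g have 1 gene between them, and Apoc2 and Apoc1 have 2. Cpm had 12.2 to 17.5 TPM (median 14.3) in PanIN lines, 2.37 to 12.3 (median 5.87) in normal lines and 2.6 to 14.4 (median 8.41) in tumor lines, which was called above normal (adjusted p = 0.0103, limma) but not above tumor lines (adjusted p = 0.0803).

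Ano3, a member of the anoctamin family of membrane proteins, had the largest smaller-side difference of all 82 high genes. It stood at 10.2 to 22.6 TPM (median 16.8) in PanIN lines, 2.02 to 8.6 (median 4.63) in normal lines and 1.38 to 7.2 (median 3.1) in tumor lines. No line outside the PanIN group reached the lowest PanIN value. Ano3 was higher by 1.48 (SE 0.30) than in normal (adjusted p = 0.00528, limma) and by 1.99 (SE 0.31) than in tumor lines (adjusted p = 0.00289) on the log2 scale. Tbc1d8, which encodes a protein with a Rab GTPase-activating domain, had 6.41 to 7.93 TPM (median 7.05) in PanIN lines, 2.99 to 4.33 (median 4.01) in normal lines and 2.31 to 5.04 (median 4.09) in tumor lines. There too the PanIN lines lay above all others (adjusted p = 0.000767 over normal and 0.00289 over tumor lines, limma).

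Among enzymes that handle drugs, lipids and aldehydes, 5 of 27 tested genes were high members and 8 were called above the pooled lines. Over both groups 2 were called, Ces2e and Ephx1. The list's median difference was 0.69 over normal and 0.33 over tumor lines. Ces2e, a carboxylesterase gene, had 5.83 to 10.1 TPM (median 8.87) in PanIN lines, 1.34 to 4.15 (median 2.83) in normal lines and 1.16 to 5.05 (median 1.53) in tumor lines, with all PanIN lines above all others. On the log2 scale Ces2e was higher by 1.32 (SE 0.22) than in normal (adjusted p = 0.00137, limma) and by 1.64 (SE 0.23) than in tumor lines (adjusted p = 0.0016). Its close relative Ces2g, named after its values were seen, was called against neither group, and reads of such similar genes may be split uncertainly.

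Ephx1, which encodes microsomal epoxide hydrolase, had 361 to 547 TPM (median 449) in PanIN lines, 267 to 363 (median 329.6) in normal lines and 174 to 296 (median 275) in tumor lines. Normal 5 alone reached just into the PanIN range. The difference was 0.51 (SE 0.13, adjusted p = 0.0231, limma) over normal and 0.87 (SE 0.14, adjusted p = 0.00289) over tumor lines. Aldh1a1, a retinaldehyde dehydrogenase gene, ran at 16.6 to 49.8 TPM (median 30.7) in PanIN lines, 4.68 to 17.2 (median 11.1) in normal lines and 9.44 to 36.0 (median 19.2) in tumor lines. Tumor 3, 4 and 7 and normal 5 overlapped the PanIN lines, and the gene was called above normal (adjusted p = 0.00451, limma) but not above tumor lines (adjusted p = 0.206).

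The remaining members of that list were scarce. Ces1d, another carboxylesterase gene, had 0.8 to 4.77 TPM (median 2.29) in PanIN lines, 0.18 to 1.43 (median 0.52) in normal lines and 0.06 to 9.04 (median 0.59) in tumor lines, where tumor 7 was the highest of all 19 lines. It was called against neither group, though leaving out tumor 7 brought both adjusted p-values to 0.036 or below. Cyp4b1, a cytochrome P450 gene, had 3.85 to 9.45 TPM (median 6.9) in PanIN lines, 1.11 to 5.39 (median 1.65) in normal lines and 0.82 to 12.9 (median 4.49) in tumor lines, with the highest value again in tumor 7. It was called above normal lines (adjusted p = 0.0343, limma) and not above tumor lines (adjusted p = 0.338).

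Glutathione transferases conjugate glutathione to electrophiles, and many are induced by the oxidative stress factor NRF2. Of 36 tested genes of the NRF2 and glutathione list, 11 were called above normal lines, 5 above the pooled lines and 0 above tumor lines, and 0 were called lower in any of these. At an unadjusted p below 0.05, limma gave 11 that differed from tumor lines in either direction. The share of all tested genes at that cut is not given here. The members were Gstm1 and Gclc. Gstm1 had 203 to 515 TPM (median 342) in PanIN lines, 69.7 to 177 (median 117) in normal lines and 93.9 to 441 (median 226) in tumor lines. All normal lines lay below the PanIN range and 4 tumor lines lay inside it (adjusted p = 0.00195 over normal and 0.148 over tumor lines, limma), and close relatives of Gstm1 make its reads uncertain.

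Gclc, the catalytic subunit gene of glutathione synthesis and the member nearest to the threshold, had 124 to 221 TPM (median 161) in PanIN lines, 59.1 to 181 (median 70.1) in normal lines and 75.0 to 179.5 (median 107) in tumor lines and was called against neither group. The gene of the list with the highest mean TPM in PanIN lines was Gstp1, no member, at 1319.9 to 2607 TPM (median 1602) in PanIN lines, 469.9 to 985 (median 794) in normal lines and 995 to 1561 (median 1202) in tumor lines. It was called above normal lines (adjusted p = 0.000354, limma) and missed over tumor lines (adjusted p = 0.0885).

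**Figure D4:**
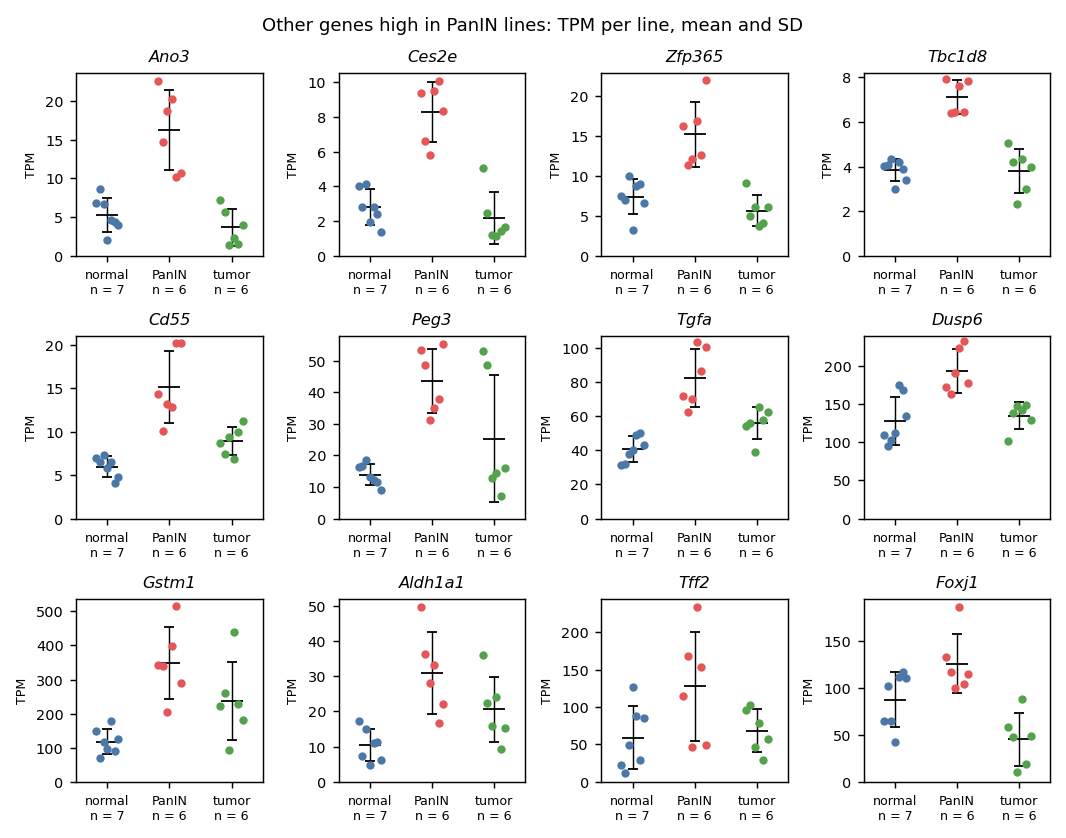
TPM of 12 further genes high in PanIN lines, 1 panel per gene, with a point per line, a bar at the group mean and whiskers of 1 SD on axes that start at 0. Ano3, Ces2e, Zfp365 and Tbc1d8 have all PanIN points above the other groups, Cd55 overlaps with 1 tumor line, and Tff2 and Foxj1 overlap with several lines.

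Signals through the EGF receptor reach the nucleus by the MAP kinase cascade, which induces its own ligands and its own phosphatases. Of 28 tested genes of that output, 7 were called above normal lines, 1 above tumor lines and 3 above the pooled lines. Tgfa, a ligand of the EGF receptor, had 62.2 to 103 TPM (median 79.2) in PanIN lines, 31.6 to 50.2 (median 40.1) in normal lines and 38.9 to 65.4 (median 56.9) in tumor lines. Tumor 7 and tumor 9 just exceeded the lowest PanIN line. The difference was 1.00 (SE 0.14, adjusted p = 0.000288, limma) over normal lines and 0.55 (SE 0.15, adjusted p = 0.06) over tumor lines, and the latter passed the threshold in 8 of 33 other settings, among them without normal 11, PanIN 6, tumor 4 or tumor 7.

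Dusp6, a phosphatase gene that restrains ERK, had 163 to 233 TPM (median 184) in PanIN lines, 94.6 to 174 (median 112) in normal lines and 102 to 149 (median 140.1) in tumor lines. Normal 11 and normal 12 overlapped the PanIN lines. It was called above normal (adjusted p = 0.0108, limma), and over tumor lines it missed (adjusted p = 0.0617), although without normal 11, PanIN 6 or tumor 4 it passed. The list gene called on both sides was the cyclin D1 gene Ccnd1, no member, with 584 to 758 TPM (median 691) in PanIN lines, 316 to 513 (median 418) in normal lines and 405 to 538 (median 497) in tumor lines. Its PanIN lines lay above all others (adjusted p = 0.000404 over normal and 0.0341 over tumor lines, limma). Of 40 tested cell cycle genes, limma called 0 in any of these comparisons. At an unadjusted p below 0.05, 40 of them differed from tumor lines, 9 from the pooled lines and 0 from normal lines, and their median difference was -0.01 over normal and -0.64 over tumor lines. Of all 12500 tested genes, 1730 passed that cut against the pooled lines. The matching counts against tumor and normal lines are not given here.

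Other high genes encode secreted or surface proteins. Tff2, a trefoil peptide of gastric mucous cells, had 46.5 to 234 TPM (median 134) in PanIN lines, 11.97 to 127 (median 49.2) in normal lines and 29.3 to 102 (median 68.1) in tumor lines, and 8 of the other lines lay above the lowest PanIN line. Ccl20, a chemokine that attracts CCR6-bearing cells, ran at 279 to 558 TPM (median 337) in PanIN lines, 96.5 to 492 (median 271) in normal lines and 76.9 to 454 (median 191) in tumor lines, with normal 12 and 13 and tumor 7 inside the PanIN range. Neither gene was called against either group. Of the 28 tested genes of the cytokine list that holds Ccl20, 1 was called above and 4 below normal lines, and the list's median difference was -0.38 over normal and 0.27 over tumor lines. The complement and acute phase list has 19 tested genes, of which 1 was called above and 5 below normal lines, with medians of -0.93 over normal and 0.73 over tumor lines. Its high members were Cfi and Cd55. Cfi, a protease that cleaves C3b, had 20.01 to 46.7 TPM (median 27.8) in PanIN lines, 10.6 to 26.3 (median 17.1) in normal lines and 4.75 to 37.7 (median 18.6) in tumor lines and was not called. Cd55, the decay-accelerating factor of the cell surface, had 10.1 to 20.2 TPM (median 13.8) in PanIN lines, 4.05 to 7.32 (median 6.5) in normal lines and 6.85 to 11.3 (median 9.03) in tumor lines. Tumor 9 alone reached into its PanIN range.

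On the log2 scale Cd55 was higher by 1.19 (SE 0.16) than in normal (adjusted p = 0.000176, limma) and by 0.68 (SE 0.16) than in tumor lines (adjusted p = 0.0419). The second call was lost without any 1 of normal 5 or 13, PanIN 1, 3, 4 or 5, or tumor 5, 8 or 9, with an adjusted p of up to 0.102. Of 30 tested genes of matrix and invasion, 2 were members, 3 were called above and 7 below normal lines, 1 above tumor lines, and 2 above and 1 below the pooled lines. Plau, which encodes urokinase, had 37.3 to 59.4 TPM (median 48.5) in PanIN lines, 16.4 to 45.2 (median 32.7) in normal lines and 15.3 to 33.2 (median 26.4) in tumor lines. Normal 11 and normal 12 lay inside the PanIN range, and the gene was called above tumor (adjusted p = 0.0419, limma) but not above normal lines (adjusted p = 0.0913). Itgb4, the beta chain of the hemidesmosome integrin, had 14.7 to 22.7 TPM (median 18.4) in PanIN lines, 7.53 to 17.96 (median 13.1) in normal lines and 11.2 to 15.0 (median 12.6) in tumor lines, overlapped with 3 other lines and was called above normal lines alone (adjusted p = 0.0496, limma).

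Peg3, a zinc finger gene expressed from the paternal allele, split the tumor lines. It had 31.1 to 55.4 TPM (median 43.3) in PanIN lines, 8.93 to 18.5 (median 13.2) in normal lines and 7.12 to 53 (median 15.1) in tumor lines. Tumor 3 at 53 TPM and tumor 4 at 48.7 TPM lay within the PanIN range, whereas the 4 other tumor lines lay with the normal lines. Peg3 was called above normal lines (adjusted p = 0.00785, limma) and not above tumor lines (adjusted p = 0.0727), unless tumor 3 (0.037) or tumor 4 (0.0188) was left out. Foxj1, the master transcription factor gene of motile cilia, had 99.6 to 186 TPM (median 116) in PanIN lines, 42.5 to 117 (median 102) in normal lines and 10.4 to 88.2 (median 48.5) in tumor lines. All tumor lines and 3 of the 7 normal lines lay below the PanIN lines.

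The difference of Foxj1 was called over tumor lines (adjusted p = 0.0335, limma) and not over normal lines (adjusted p = 0.448). Of the 9 tested genes of the ciliated cell list, limma called 3 above tumor lines, Foxj1, Rsph1 and Spag6, and 0 above normal lines. In either direction 7 and 0 passed an unadjusted p below 0.05 (limma). The matching shares of all tested genes are not given here. Spag6, a gene of the axoneme, had 3.14 to 10.7 TPM (median 7.44) in PanIN lines, 2.6 to 10 (median 6.66) in normal lines and 0.52 to 3.74 (median 2.33) in tumor lines, so PanIN lines shared the range of normal lines. The summed TPM of the ciliated list was 122 to 223 in PanIN, 56.5 to 158 in normal and 15.5 to 103 in tumor lines. Most of that sum was Foxj1 itself, with means of 126 TPM in PanIN, 87.5 in normal and 45.4 in tumor lines. The list's median difference was -0.11 over normal and 0.77 over tumor lines. The share of ciliated cells in the lines was not tested.

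The following high members are outside the naming rule and were chosen after their values were seen. Mgmt, which encodes the repair enzyme that removes methyl groups from guanine, had 20.1 to 43.3 TPM (median 36.9) in PanIN lines, 11.5 to 29.4 (median 25.1) in normal lines and 6.43 to 18.2 (median 8.88) in tumor lines. All tumor lines lay below the PanIN range and 4 normal lines lay inside it, and the gene was called above tumor lines alone (adjusted p = 0.00391, limma). The apolipoprotein genes Apoc2, Apoc1 and Apob were all high members. Apoc2 had 6.44 to 48.0 TPM (median 15.3) in PanIN lines, 0.47 to 6.94 (median 1.84) in normal lines and 4.18 to 22.5 (median 10.9) in tumor lines and was called above normal lines alone (adjusted p = 0.00179, limma). Apoc1 had 0.17 to 20.1 TPM (median 7.1) in PanIN lines, 0.37 to 4.49 (median 0.57) in normal lines and 0.72 to 12.04 (median 3.16) in tumor lines, with the lowest value of all 19 lines in PanIN 6 and the highest in PanIN 2. Apob had 1.04 to 11.3 TPM (median 1.28) in PanIN lines, where PanIN 3 was the highest, and no longer met the rule without PanIN 3, tumor 7 or tumor 8.

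Trf, which encodes the iron carrier transferrin, was the most abundant high member, with a mean of 959 TPM in PanIN lines. It had 181 to 1364 TPM (median 1050.0) in PanIN lines, 268 to 829.2 (median 516) in normal lines and 162 to 1350.0 (median 346) in tumor lines, PanIN 6 lay below 12 of the 13 other lines, and neither test passed. Fam198b had 2.4 to 4.87 TPM (median 3.29) in PanIN lines, 0.2 to 0.89 (median 0.59) in normal lines and 0.88 to 2.37 (median 1.77) in tumor lines, with all PanIN lines highest, and the smallest adjusted p over normal lines of any high member (2.99e-05, limma). The unnamed transcript AK207688 had a pattern of presence and absence. It was listed at 11.9 to 14.7 TPM in PanIN 1 to 5 and at 14.7 to 18.4 TPM in tumor 4, 5 and 9. In PanIN 6, in tumor 3, 7 and 8 and in 6 of the 7 normal lines it was listed at 0, which in a table without counts may also be a failed estimate.

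Among the low genes, the sole one called on both sides was 6430548M08Rik, outside the naming rule, with 1.19 to 2.21 TPM (median 1.3) in PanIN lines, 3.05 to 3.53 (median 3.21) in normal lines and 1.82 to 3.68 (median 2.73) in tumor lines. All 6 PanIN lines lay below all normal lines, and tumor 3 and tumor 4 lay below PanIN 6. Its log2 difference was -0.83 (SE 0.12) from normal (adjusted p = 0.000286, limma) and -0.58 (SE 0.12) from tumor lines (adjusted p = 0.0236). The number of tested genes called below both groups depended on single lines. It ranged from 0 to 27 when 1 line was left out. Atp10b, a phospholipid flippase gene named after its values were seen, was also low in PanIN lines. It had 3.87 to 8.46 TPM (median 5.04) in PanIN lines, 10.7 to 35.4 (median 14.5) in normal lines and 8.24 to 15.5 (median 9.66) in tumor lines, and tumor 4 alone lay below the highest PanIN line. It was called below normal (adjusted p = 0.000852, limma) but not below tumor lines (adjusted p = 0.0674).

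Wnt ligands stabilise beta-catenin, and R-spondin, present in the medium, strengthens that signal through receptors of the Lgr family. Lgr5 encodes such a receptor and marks stem cells in several epithelia. It had 0.9 to 1.68 TPM (median 1.4) in PanIN lines, 0.89 to 14.2 (median 4.34) in normal lines and 2.6 to 6.27 (median 3.18) in tumor lines. All tumor lines and 5 of the 7 normal lines lay above the highest PanIN line, and normal 6 was the highest of all. The difference was -0.9965 (SE 0.34, adjusted p = 0.084, limma) from normal and -0.96 (SE 0.35, adjusted p = 0.0891) from tumor lines, and neither passed. Axin2, a negative-feedback target of beta-catenin, had 0.85 to 4.43 TPM (median 2.27) in PanIN lines, 2.26 to 26.3 (median 7.99) in normal lines and 3.13 to 9.13 (median 4.6) in tumor lines. It was called below normal (adjusted p = 0.0416, limma) but not below tumor lines (adjusted p = 0.172), and 6 of the other lines lay below the highest PanIN line.

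Of 22 tested genes of the Wnt, Notch and YAP list, Lgr5 and Axin2 were the members, and limma called 0 in either direction against the pooled lines (10 at an unadjusted p below 0.05). Of all 12500 tested genes, 1730 passed that unadjusted cut. Other Wnt targets of the list were no members. Rnf43, a ubiquitin ligase gene that removes Wnt receptors, had 20.2 to 26.5 TPM (median 21.4) in PanIN lines, 18 to 40.7 (median 29.3) in normal lines and 21.7 to 32.5 (median 24.3) in tumor lines, and Sp5 had 3.06 to 12.6 TPM (median 10.8) in PanIN lines, 9.36 to 23.9 (median 12.3) in normal lines and 6.13 to 15.2 (median 7.18) in tumor lines. The list's median difference was -0.02 over normal and 0.04 over tumor lines. Of the list, 3 genes were called above tumor lines, 1 above normal lines and 1 below normal lines. Jag1, a Notch ligand gene, was called above tumor lines (adjusted p = 0.0217, limma).

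**Figure D5:**
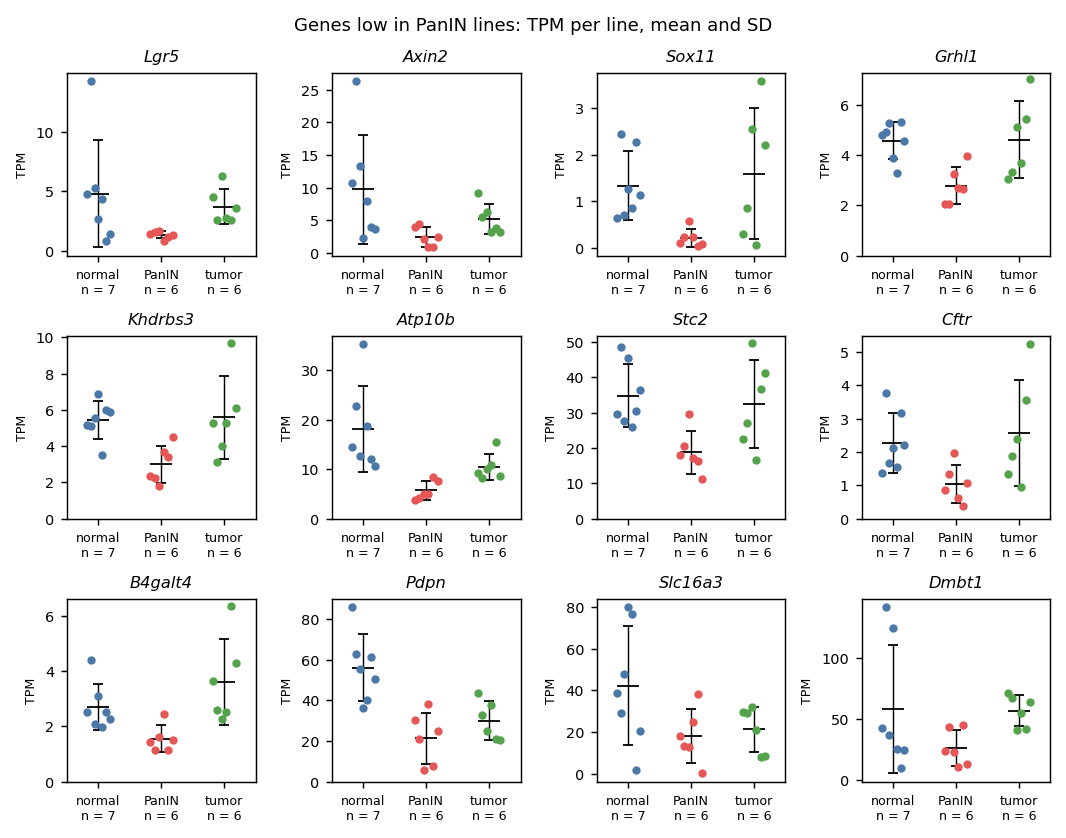
TPM of 12 genes low in PanIN lines, 1 panel per gene, with a point per line, a bar at the group mean and whiskers of 1 SD. In each panel at least 1 normal or tumor line falls within the PanIN range, and single high normal lines widen the spread of Lgr5, Axin2 and Dmbt1.

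Cftr, a low member of the ductal list, encodes the chloride channel that drives ductal bicarbonate secretion. It had 0.37 to 1.97 TPM (median 0.965) in PanIN lines, 1.36 to 3.76 (median 2.13) in normal lines and 0.96 to 5.24 (median 2.14) in tumor lines. There were 6 other lines below the highest PanIN line, and it was called against neither group. Of the 25 ductal genes, limma called 0 against the pooled lines in either direction (6 at an unadjusted p below 0.05, beside 1730 of all 12500 tested genes). Slc16a3, a lactate exporter gene of the hypoxia list, had 0.37 to 38.4 TPM (median 16.0) in PanIN lines, 2.18 to 79.8 (median 39.0) in normal lines and 8.29 to 32.2 (median 25.1) in tumor lines, with PanIN 6 lowest at 0.37 TPM. It no longer met the rule without PanIN 6 or without any 1 of tumor 3, 4 and 5.

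Further low genes were chosen after their values were seen. Sox11, a developmental transcription factor gene, had 0.04 to 0.58 TPM (median 0.175) in PanIN lines, 0.65 to 2.45 (median 1.14) in normal lines and 0.06 to 3.58 (median 1.53) in tumor lines, and no normal line reached down to the PanIN range. Neither of its tests passed (adjusted p = 0.0668 and 0.0725, limma). Grhl1 and Khdrbs3 were called below normal and below the pooled lines.

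Grhl1, an epithelial transcription factor gene, had 2.06 to 3.98 TPM (median 2.67) in PanIN lines, 3.29 to 5.31 (median 4.81) in normal lines and 3.07 to 7.04 (median 4.41) in tumor lines. Dmbt1, a mucosal scavenger receptor gene, had 10.7 to 45.3 TPM (median 23.1) in PanIN lines, 10.1 to 142 (median 37.1) in normal lines and 41.1 to 71.1 (median 59.6) in tumor lines, where the tumor lines were tight and the normal lines spread widely. B4galt4, a galactosyltransferase gene, was the member called below tumor but not normal lines (adjusted p = 0.0379, limma). The lymphocyte-regulated genes Xlr3a and Xlr3b are near-identical copies with uncertain read counts. Xlr3b had 0 to 1.78 TPM (median 0.755) in PanIN lines, 0.09 to 36.4 (median 4.21) in normal lines and 0.02 to 13.9 (median 4.42) in tumor lines and was not called. Lars2, a mitochondrial leucyl-tRNA synthetase gene, ranged from 1.63 to 743 TPM among normal lines, and it no longer met the rule without normal 12, PanIN 4 or tumor 3. In the authors' own comparison its PanIN over normal log2 fold change had the other sign, at 0.23, without an adjusted p.

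Near the threshold, the members just inside on the high side were Gclc and Itgb4, each with a smaller difference of 0.50, and the genes just outside were Golt1a and Ercc5, each at 0.49. On the low side Cdh17 (-0.50) and Lphn3 (-0.51) lay just inside, and Shf (-0.49) and Rsc1a1 (-0.48) just outside. Membership depended on single lines for many genes: 37 of the 82 high genes and 11 of the 33 low genes met the rule in all 19 repeats that left out 1 line. Leaving out tumor 5 dropped 20 of the high genes and leaving out PanIN 5 dropped 10 of the low genes, the largest numbers on each side.

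Library identifiers in the table's column names fall into 3 series, and the labels do not say what a series stands for. PanIN 1 to 3 share the first with normal 5 to 7 and tumor 4. PanIN 4 shares the second with normal 10, normal 11, tumor 5, tumor 7 and tumor 8. PanIN 5 and PanIN 6 share the third with the remaining lines, normal 12, normal 13, tumor 3 and tumor 9. Within the first series 68 of the 82 high genes lay above both other group means, within the second, which has 1 PanIN line, 82, and within the third 67. For 57 of them this held in all 3 series. Of the 33 low genes, 30, 30 and 29 lay below both means within the series and 23 in all 3. Within females 79 high and 25 low genes kept their side of both means, and within males 74 and 31. The female PanIN lines are PanIN 1 to 3, the same as in the first series, and the male ones are PanIN 4 to 6. Sex and series thus cannot be told apart among the PanIN lines. The members were chosen by the group means of these same lines. That choice favours the same side within subsets of the lines, so these counts are a description and no replication. The matching shares of all tested genes within the subsets are not given here. With so few lines per subset the counts are values without a test.

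The authors' deposited table gives their own comparisons of PanIN with normal lines and of tumor with PanIN lines. In the authors' deposited table both sides were called for 35 of the 78 high genes with 2 adjusted p-values and for 10 of the 30 low genes. Over all tested genes with both values these shares were 0.966% and 0.231%. The 25 high genes called on both sides here were all called there too, and so was the sole low gene. Those comparisons were deposited with the TPM of the same lines, so the shared calls are not an independent test.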

How the data were processed

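RNA-seq values of 19 organoid lines were used. The authors deposited TPM per line, in a single table, with their own comparisons. The submitters' processing notes name Bowtie 1.1.0, RSEM 1.2.11, FastQC, DESeq and DESeq2 1.4.1 with build mm9. The sources used here do not name the annotation. Per the file headers, the comparisons hold a mean signal, a log2 fold change with its standard error, a test statistic (a score per gene) and a p-value, raw and adjusted. The deposited table gives no comparison for 11 expressed rows. Per the labels' protocols, libraries were strand-marking and depleted of ribosomal RNA. TPM keeps no depth, so the reads behind a value are unknown.

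Values were tested as log2(TPM + 1), with a pseudocount of 1, by limma 3.58.1 in R 4.3.3: 1 mean per group over all 19 lines, eBayes with trend, two-sided, Benjamini-Hochberg over 12500 genes per contrast, calls below 0.05. The pooled contrast sets PanIN against the mean of the 13 other lines. Named genes were, among members called on both sides with a mean of at least 5 TPM, up to 12 per direction with the largest smaller difference, up to 4 members of each of 32 lists, and the 2 genes on each side of each threshold; predicted symbols were left out. Other genes were named after their values were seen. The members and lists were chosen with earlier results of these data known. Alternatives covered scale, filter, normalization, covariates, pairing, test, contrast, threshold and left-out lines. Reading used jsonlite 2.0.0, pandas 2.3.3 and data.table (release 1.17.8), and figures drawn with matplotlib 3.10.9 in Python 3.11.15. An allele shared by the PanIN and tumor mice and some genes are not reported here.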

Additional observations from a re-analysis of the deposited data

Results flagged for a closer look

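Among the 32 named genes and 3 groups, 96 sets of lines were screened for a single line far from its group, and 7 stood out (7.29%), where chance gives about 1 in 20. Zfp365 in normal 10 was the lowest of its group at 3.25 TPM, with the next at 6.60. Tgfa in tumor 5 was lowest at 38.9 TPM, next 54.2, and Dusp6 in tumor 3 was lowest at 101.5 TPM, next 129. Ces1d in tumor 7 was highest at 9.04 TPM, next 1.19, and Cyp4b1 in normal 6 was highest at 5.39 TPM, next 2.23. Slc16a3 was lowest in normal 12, at 2.18 TPM against 20.7, and in PanIN 6, at 0.37 TPM against 13.2.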

How the results depend on the processing

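The main counts were 170 genes called against the pooled lines (117 higher, 53 lower, and 1730 at an unadjusted p below 0.05), 44 called on both sides and 115 meeting the difference rule. The rule's count was 216 with a pseudocount of 0.1, 45 with one of 5 and 10 at a threshold of 1.0. Median-of-ratios scaling gave 70 genes called on both sides, and its pooled calls were 79.3% higher against 68.8%. Leaving out PanIN 5 and PanIN 6 gave 88 pooled calls, and a fit of the 13 other lines as 1 group gave 43. With 1 line left out, pooled calls ranged from 71 (without PanIN 4) to 209, calls on both sides from 22 (without PanIN 4) to 98 (without PanIN 6) and the rule's count from 95 to 137. Pooled calls also fell without PanIN 1 (75), PanIN 5 (92), normal 13 (109) and normal 10 (112). Calls on both sides fell without PanIN 1 (24) and tumor 8 (28) and increased without normal 11 (76) and tumor 4 (84). Of the calls on both sides, 2 were lower in PanIN lines in the main fit. Lower calls numbered 27 without PanIN 6, 25 without normal 11, 19 without tumor 4 and 0 without PanIN 4. With PanIN 5 and PanIN 6 both left out they numbered 12. With the line number as a replicate block the counts were 30, 1 and 262. The 1 gene called on both sides there was lower in PanIN lines, and 0 were higher. The labels do not say whether a shared number links lines across groups. Of 7 same-numbered pairs 1 had a correlation of deviations above 0.1 (range -0.31 to 0.25), and 1 of 11 lines correlated best with its own number. So few pairs cannot decide whether same-numbered lines share an origin or handling. Among the 32 named genes, none reversed. Every named gene called on both sides in the main fit lost that call under the block. Their larger adjusted p there ran from 0.0606 (Psrc1) to 0.365 (Zfp365, limma). Cd55 lost its call in 12 and Sesn2 in 18 of 33 settings, and Slc16a3 without PanIN 6 and Sulf2 under the block no longer lay on 1 side of both groups. The cause of these shifts was not tested, and depth, which TPM does not keep, limits what can be said of genes near 1 TPM.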

Other observations

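Against the pooled lines, 125 further genes were called that the difference rule did not choose: for 112 the PanIN mean lay beyond both other means by less, and for 13 it lay between them. The examples were chosen after their values were seen. Gcnt3, a mucin-branching glycosyltransferase gene, belonged to the latter, with means of 120.3 TPM in PanIN, 7.38 in normal and 136 in tumor lines, so its pooled call came from the normal side. The cyclin D2 gene Ccnd2 had means of 267, 114 and 197 TPM (adjusted p = 0.00187 against the pooled lines, limma), in the same order as Ccnd1. Among lower genes, Dsc2, a desmosomal cadherin gene, had 2.86, 8.4 and 4.44 TPM (adjusted p = 0.00115, limma), and Nr2f2, a nuclear receptor gene, had 3.35, 6.45 and 4.04 TPM (adjusted p = 0.0058, limma).

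Add3, which encodes the membrane-skeleton protein adducin 3, was lower on both sides with a difference under the threshold. It had 13.9 to 17.2 TPM (median 15.6) in PanIN lines, 18.1 to 27.0 (median 21.4) in normal lines and 19.8 to 24.1 (median 21.0) in tumor lines, and all 6 PanIN lines lay below all 13 others (adjusted p = 0.00282 against normal and 0.0155 against tumor lines, limma). The lysosomal genes Aga and Ctsd stood higher against tumor lines. Aga, an aspartylglucosaminidase gene, had means of 46.1 TPM in PanIN, 36.2 in normal and 30.0 in tumor lines and was called on both sides. Ctsd, the cathepsin D gene, had 704, 629.6 and 461 TPM and was called above tumor (adjusted p = 0.00352, limma) but not above normal lines (adjusted p = 0.401). Abcc4, an organic anion efflux pump gene, and Orai2, a calcium channel gene, were called on both sides with no overlap between PanIN and other lines. Abcc4 had 61.3 to 75.9 TPM (median 68.3) in PanIN lines, 31.5 to 48.9 (median 42.4) in normal lines and 40.3 to 60.0 (median 48.6) in tumor lines.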
